A study of Homo sapiens with 2 samples.

Results

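The probes of 6 lncRNAs had no spot well above background before dihydrotestosterone (DHT) and every spot well above background 2 h after it. They are LINC00308 (probe oebiotech_09219), LOC100509487 (A_21_P0014694), ST7-OT4 (A_33_P3291430), LINC01296 (oebiotech_05345), FTX (oebiotech_20049) and AP000525.10 (A_21_P0011477), 6 of the 77162 probes on the array. They were chosen by their detection flags at 0 h and 2 h from the study's list of the transcripts with the largest fold rise after DHT. Their rise is thus what selected them and is described here without a test. LNCaP cells, an androgen receptor positive line from a lymph node metastasis of prostate cancer, were kept for 72 h in phenol red-free medium with charcoal-stripped serum (5% per the labels, while the study's methods give another percentage), which removes most steroid hormones, and were then given 10 nM DHT for 0 h or 2 h. Both groups were starved in this way, and the 0 h group is the starved cells with no time in DHT. The series has no array of cells kept 2 h without DHT, so DHT and 2 h of handling cannot be told apart. A single Agilent array, labelled with Cy3 alone, was hybridised with total RNA of each group, so there was 1 array per condition and no replicate array. The paper also followed LINC00308 by qRT-PCR under DHT, outside the arrays read here. The 2 arrays were on 1 slide and were read in the same scan. The scanner output names probes but pairs none with genes, so androgen target genes and the markers of LNCaP and other cell types were not analysed here, and the labelled cell type and the response to DHT were not checked by them.

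DHT is the most potent natural androgen. It binds the androgen receptor, which moves to the nucleus, binds DNA at androgen response elements and changes transcription of nearby and distant genes, in prostate cells that of KLK3 (PSA) and TMPRSS2 among others. lncRNAs are long transcripts that are not translated, and many are kept at low levels and in few cell types. LINC00308 is a long intergenic RNA whose role is little studied. ST7-OT4 is a transcript of the ST7 locus, a region named for a proposed tumour suppressor gene. LINC01296 is an older name of DUXAP9, a transcribed pseudogene of the DUXA homeobox family, which has several similar copies in the genome. FTX lies in the X inactivation centre, acts on XIST, and hosts microRNAs in its introns. LOC100509487 and AP000525.10 are known by a locus number and a clone name, and no role is given for them here.

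The oligonucleotides that carried these signals are 60 bases long and are shown as the scanner output gives them, 5′ to 3′, because every value below is the signal of such a probe and not of a whole transcript. In the first set, capitals mark the longest run of bases that another probe of the array also has on the same strand.
LINC00308: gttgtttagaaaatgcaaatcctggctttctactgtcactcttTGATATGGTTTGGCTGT
LOC100509487: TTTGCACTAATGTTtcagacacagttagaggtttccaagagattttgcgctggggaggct
ST7-OT4: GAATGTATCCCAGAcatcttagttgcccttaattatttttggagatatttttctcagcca
FTX: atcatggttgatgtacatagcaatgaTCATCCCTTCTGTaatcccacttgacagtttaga
AP000525.10: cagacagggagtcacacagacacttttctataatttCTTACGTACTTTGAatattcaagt

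The shared run was 17 bases for LINC00308 and 13 or 14 bases for the other 4, so no other probe of the array measured the same stretch of these 5 RNAs. The probe of LINC01296 was different. It overlapped 2 further probes, each shifted by 2 bases, which are named here by that overlap. In the second set capitals mark the 56 bases that all 3 share.
LINC01296, probe oebiotech_18323: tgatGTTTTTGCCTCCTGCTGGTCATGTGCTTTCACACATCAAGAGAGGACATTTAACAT
LINC01296, probe oebiotech_05345: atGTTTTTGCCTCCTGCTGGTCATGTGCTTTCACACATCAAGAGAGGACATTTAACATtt
LINC01296, probe A_21_P0012327: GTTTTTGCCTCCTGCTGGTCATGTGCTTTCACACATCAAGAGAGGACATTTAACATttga

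The probe chosen for LINC01296 is oebiotech_05345. GC content was 38.3% for LINC00308, 45% for LOC100509487, 35% for ST7-OT4, 40% for LINC01296, 38.3% for FTX and 35% for AP000525.10, beside a median of 41.7% over all probes. RefSeq (GRCh38.p14) held 4 of the 6 RNAs, 3 by symbol and LINC01296 by synonym, with LINC00308 on chromosome 21, ST7-OT4 on chromosome 7, LINC01296 on chromosome 14 and FTX on chromosome X. LOC100509487 is listed with chromosome 16 and AP000525.10 with chromosome 14. The scanner output maps these probes to no genome position, so start, end and exon are not given.

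Each probe was printed as 3 spots, and the values below are first the processed signals of the spots, an intensity after background subtraction and spatial detrending that is not yet scaled between the arrays. LINC00308 gave 11.7, 11.3 and 10.0 at 0 h and 581, 689 and 733 at 2 h, and the spot of 581 carried a population outlier flag and was left out of the averages of normalized signals. All its 2 h spots lay far above all its 0 h spots. At 0 h the pixels of its spots were dimmer than the background taken from them, with differences of -13.8, -7.28 and -6.12 units, so no signal of LINC00308 above background was measured before DHT. The software replaces such a value by a surrogate, a small positive number derived from the noise, and the 3 values of 0 h are surrogates.

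For the other intergenic or unclassified RNA, LOC100509487, the spots were 10.5, 10.6 and 9.49 at 0 h and 504, 535 and 476 at 2 h. ST7-OT4 gave 11.0, 9.60 and 10.0 at 0 h and 440, 417 and 426 at 2 h. FTX, the X inactivation centre RNA, gave 11.1, 10.5 and 9.74 at 0 h and 416, 383 and 378 at 2 h. In all 3 RNAs every 2 h spot lay above every 0 h value, and the 0 h values, all surrogates, say nothing of how well the spots agreed.

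The pseudogene transcript LINC01296 gave 11.1, 11.8 and 10.4 at 0 h and 496, 484 and 584 at 2 h. AP000525.10 gave 11.5, 11.6 and 10.5 at 0 h and 470, 484 and 472 at 2 h. The last of its spots, 11.4 units brighter than its background at 0 h, was the only one of the 18 spots that the software called positive and significant before DHT, though not well above background. The other 17 values of 0 h were surrogates, and none was at 2 h.

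**Figure D1:**
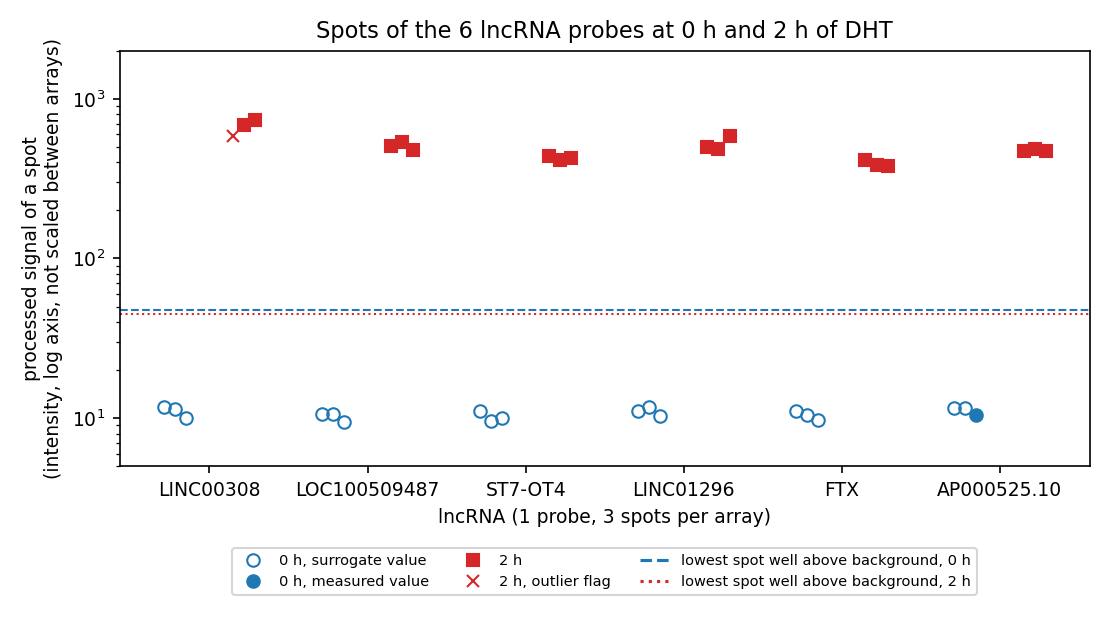
Processed signal of each spot (log axis) for the 6 lncRNA probes at 0 h (circles, open for surrogate values) and 2 h (squares, a cross for the spot with an outlier flag), with dashed and dotted lines at the lowest signal of a spot well above background on either array. All 18 spots of 0 h lie between 9.49 and 11.8 and all 18 spots of 2 h between 378 and 733.

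The plot of spots shows how far the probes were from the limit of detection on both sides. The lowest processed signal of a spot well above background was 47.7 at 0 h and 44.6 at 2 h. On the scale of pixel intensity minus background, the 18 spots ranged from -13.8 to 11.4 at 0 h, and the dimmest spot well above background on that array was at 53.2. At 2 h they ranged from 379 to 721, and the dimmest such spot was at 47.6. No spot of these probes sat near the threshold, a distance that follows from choosing them by their large change and their flags.

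The 600 negative control spots, probes designed to match no human RNA, give the level of no signal. Their background-subtracted signal had a median of -10.1 at 0 h and -10.7 at 2 h, and a 95th percentile of 2.22 at 0 h and 1.61 at 2 h. At 0 h, 17 of the 18 spots of the 6 lncRNAs were above the median of the negative controls and 11 of 18 were above their 95th percentile. Every spot of LINC00308 was below that percentile, and no spot of the 6 lncRNAs was well above background before DHT. The share of all spots of the array above these levels was not counted, so the counts are not read as a trait of the 6. At 2 h all 18 spots were above the brightest negative control of that array, which was at 26.8. A negative control spot of the 0 h array reached 514, within the range of the lncRNA spots at 2 h, so bright spots without a matching RNA did occur.

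The mean pixel signal, read before any background is taken off, rose in the same RNAs by smaller ratios because the background is in both readings. Over all 3 spots, the spot with the outlier flag included, it was 5.97 times as high at 2 h as at 0 h for LINC00308 (6.43 times as a mean of log2 values without that spot), 4.65 times for LOC100509487, 4.06 times for ST7-OT4, 4.50 times for LINC01296, 3.81 times for FTX and 4.40 times for AP000525.10. The background used for these spots was itself higher at 2 h, 165 to 181 units against 135 to 158 at 0 h.

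After quantile normalization the log2 signal of LINC00308 was 3.72 ± 0.47 (SD, 3 spots) at 0 h and 8.99 ± 0.07 (SD, 2 spots) at 2 h. The SDs at 2 h are over spots of 1 array and measure spot noise only, not the spread between cultures, and those at 0 h are over surrogates, except for 1 spot of AP000525.10. The ratio of the 2 values is 38.5, but its denominator is a surrogate. The rise is therefore given as a lower bound, the 2 h value over the higher of the probe's own 0 h value and the lowest signal of any probe detected at 0 h (log2 5.65). A detected probe needed only a share of 0.5 of its spots well above background, and this first limit averages in a spot that was not. A second and stricter bound therefore takes the lowest single spot well above background (log2 6.61). LINC00308 was at least 10.1-fold higher by the first limit and at least 5.21-fold higher by the stricter one. Its bound depended on the processing, at 4.04-fold with normexp background correction, 22.3-fold with no scaling between the arrays and 29.5-fold with the arrays set to the spike-in probes.

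LOC100509487 went from 3.29 ± 0.08 to 8.47 ± 0.09 (log2, SD, 3 spots on each array), at least 7.05-fold and by the stricter limit at least 3.63-fold. ST7-OT4 went from 3.30 ± 0.11 to 8.22 ± 0.04, at least 5.93-fold or 3.05-fold. LINC01296 went from 3.70 ± 0.53 to 8.52 ± 0.15, at least 7.27-fold or 3.75-fold. These 3 were past 2-fold by either limit.

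FTX went from 3.33 ± 0.11 to 8.09 ± 0.08, at least 5.40-fold or 2.79-fold. AP000525.10 went from 3.80 ± 0.41 to 8.38 ± 0.02, at least 6.62-fold or 3.41-fold. The median over the 6 probes was 6.83-fold by the first limit and 3.52-fold by the stricter one, and the ratios of the values, over 0 h values that were surrogates in 17 of 18 spots, ran from 24.0 to 38.5. With normexp background correction the bounds were 2.95-fold for LOC100509487, 2.63-fold for ST7-OT4, 2.95-fold for LINC01296, 2.40-fold for FTX and 2.86-fold for AP000525.10. With no scaling they were 15.8-fold, 13.4-fold, 16.3-fold, 12.3-fold and 14.9-fold in the same order, so the size of a bound is tied to its processing while each stayed past 2-fold. In RNA from a whole culture, a rise in more cells and more RNA per cell cannot be told apart.

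The pattern itself was common. Of all 77162 probes, 11064 (14.3%) had no spot well above background at 0 h and all at 2 h, while 62 (0.0804%) had the opposite pattern. Among probes printed as 3 spots, like the 6 lncRNAs, 4660 of 46494 (10.0%) had it. By the name of the probe, which marks the collection a probe came from, the pattern was found in 11.1% of 28491 probes with names like that of LINC00308 (oebiotech), 8.001% of 14948 named like those of LOC100509487 and AP000525.10 (A_21) and 18.3% of 13891 named like that of ST7-OT4 (A_33). In the classes A_23, A_24 and A_32 it was found in 20.8%, 23.6% and 19.8%. These are shares of probes, since the files do not say which probes read lncRNAs.

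Quantities read over the whole arrays also differed between 0 h and 2 h, some higher at 2 h and some lower. On the 2 h array 37.4% of the 175556 non-control spots were well above background, against 21.9% on the 0 h array, and the median local background was 72 against 56. The 5 spike-in probes read above background on both arrays, RNA added in fixed amounts, went the other way, by a median log2 difference (2 h minus 0 h) of -0.40 and between -0.54 and -0.17 before scaling. The 19309 probes detected on both arrays had a median log2 difference of -0.29 after quantile normalization. The part of these differences in the appearance of the 6 lncRNAs was not tested.

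The background for the bounds is their spread over the probes with this pattern. The median lower bound over the 11064 probes was 1.21-fold, and 2400 of them (21.7%) were at least 2-fold higher by the first limit, 818 (7.39%) by the stricter one, and 434 (3.92%) at least 4-fold higher by the first limit. The count of 2400 rests on the scaling and the background correction: it was 10790 with the arrays set to the spike-in probes, 9018 with no scaling and 561 with normexp background correction. All 6 lncRNAs were at least 4-fold higher by the first limit and at least 2-fold higher by the stricter one. They had entered the study's list through their change between the same arrays, so this count is a description of how they were chosen. Judged by the values instead of the bounds, 6224 probes (56.3%) were at least 2-fold higher. A rise of 2-fold or more, by value or by the first limit, was found in 4850 (15%) of the 32428 probes that 1 or both arrays detected.

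**Figure D2:**
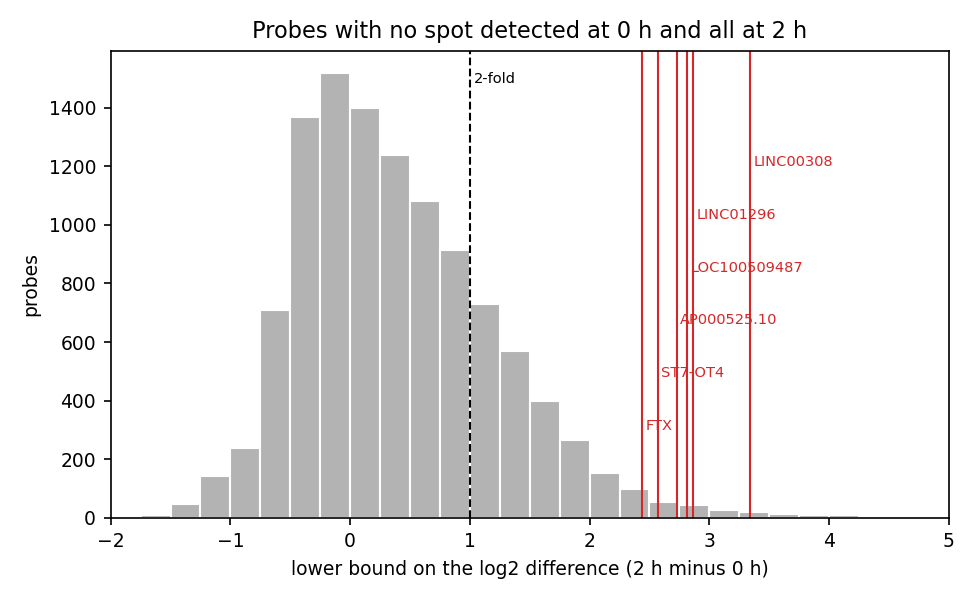
Number of probes by the lower bound on the log2 difference (2 h minus 0 h) among the 11064 probes with no spot detected at 0 h and all at 2 h, with the 6 lncRNA probes as vertical lines and 2-fold as a dashed line. The lines lie between 2.43 and 3.34 and the median over the 11064 probes is 0.27, and since 1 floor stands under the 6 lines their places follow the 2 h signals.

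Each bound of the 6 is the 2 h signal over the same floor, so the order of their bounds is only the order of the 2 h signals of different probes, and the order of the ratios of values rests on surrogates. Neither ranks the rises of the 6 lncRNAs against each other or against other probes.

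The plot of all probes shows where such probes lie. At 0 h the 6 lncRNAs lay between log2 3.29 and 3.80, at the bottom of the scale where surrogate values gather, and 23.0% of the 11064 probes were at or below the highest of them there. Of the 4168 probes with a detected 2 h signal in the same range as theirs, log2 8.09 to 8.99, 3813 were also detected at 0 h, with a median 0 h signal of log2 8.45, and 301 (7.22%) were seen at 2 h alone. A signal of that size after DHT was in most probes a signal of similar size before it, with a median log2 difference of 0.04.

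**Figure D3:**
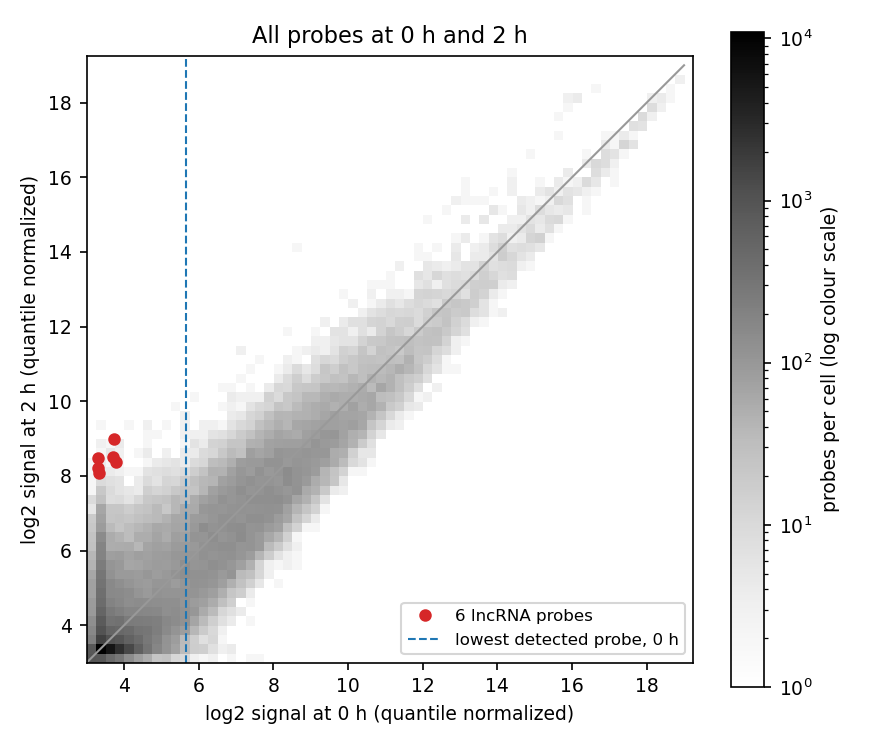
Log2 signal after quantile normalization at 0 h (horizontal) and 2 h (vertical) for all probes, in cells shaded by the number of probes (log colour scale), with the 6 lncRNA probes in red, the line of equality in grey and the lowest detected probe of 0 h (log2 5.65) as a dashed line. The 6 probes lie left of the dashed line at 3.29 to 3.80 and above nearly all probes of that stretch, at 8.09 to 8.99.

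The 3 overlapping probes of LINC01296 differed in how many of their values were surrogates. They read 56 bases of the same RNA, and at 2 h they stood at log2 8.49, 8.52 and 8.56, a range of 0.07. At 0 h none had a spot well above background, but oebiotech_05345 had 3 surrogates and a value of 3.70 ± 0.53, A_21_P0012327 had 1 surrogate and 4.56 ± 1.06, and oebiotech_18323 had none and 5.46 ± 0.11, a range of 1.76. The software called all 3 spots of oebiotech_18323 and 2 of the 3 spots of A_21_P0012327 positive and significant against their background at 0 h, so a weak signal of this stretch was read before DHT, though no spot of oebiotech_05345 was called so. The ratio of the values was 28.1 for the first, 16.01 for the second and 8.19 for the last. The lower bounds by the first limit, which do not use the 0 h values of these probes, were 7.27-fold, 7.50-fold and 7.16-fold.

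A rise of LINC01296 past 2-fold was seen in all 3 probes and by either limit, the stricter bounds being 3.75-fold, 3.87-fold and 3.69-fold, while its size by the values ran from 8.19 to 28.1 between probes of nearly the same sequence. The 2 h readings come from 1 array, so the 3 probes are repeat readings of 1 RNA sample. DUXA pseudogene copies are alike in sequence, and whether the bases of these probes occur in more than 1 copy was not examined. The signal is therefore not assigned to 1 copy.

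AP000525.10 was read on a second stretch too. A further probe, A_21_P0008289, is listed for the same transcript and reads another stretch of it. It overlaps 3 further probes of the array, oebiotech_00280, oebiotech_02000 and oebiotech_24840. These are named here by that overlap and were added after their values were seen. The probe of the listed transcript is shown with its overlap with oebiotech_02000 in capitals.
AP000525.10, probe A_21_P0008289: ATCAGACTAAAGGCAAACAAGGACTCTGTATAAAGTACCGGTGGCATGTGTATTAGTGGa

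A_21_P0008289 went from log2 3.55 ± 0.37 to 5.93 ± 0.11, with spots of 88.9, 101 and 88.3 at 2 h, and was at least 1.21-fold higher by the first limit. Its overlapping probes gave 1.23-fold (oebiotech_00280), 1.13-fold (oebiotech_24840) and 1.08-fold (oebiotech_02000, with 2 of 3 spots well above background at 2 h). None of the 4 gave a bound above 1 by the stricter limit. The ratios of the values, over 0 h values that were mostly surrogates, were 5.21 for A_21_P0008289, 6.56 for oebiotech_00280, 4.63 for oebiotech_24840 and 5.48 for oebiotech_02000. The bound of the probe on the study's list, A_21_P0011477, was 6.62-fold over the same floor, so the bounds differ as the 2 h signals of different probes do and do not show that the stretches rose by different amounts. A scaling that shifts a whole array shifts all of these bounds. With no scaling between the arrays they were 2.91-fold (A_21_P0008289), 2.96-fold (oebiotech_00280), 2.71-fold (oebiotech_24840) and 2.56-fold (oebiotech_02000), beside 14.9-fold for A_21_P0011477. With the arrays set to the spike-in probes they were 3.83-fold, 3.90-fold, 3.57-fold and 3.38-fold, beside 19.7-fold. Whether both stretches lie on 1 RNA in these cells was not tested.

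**Figure D4:**
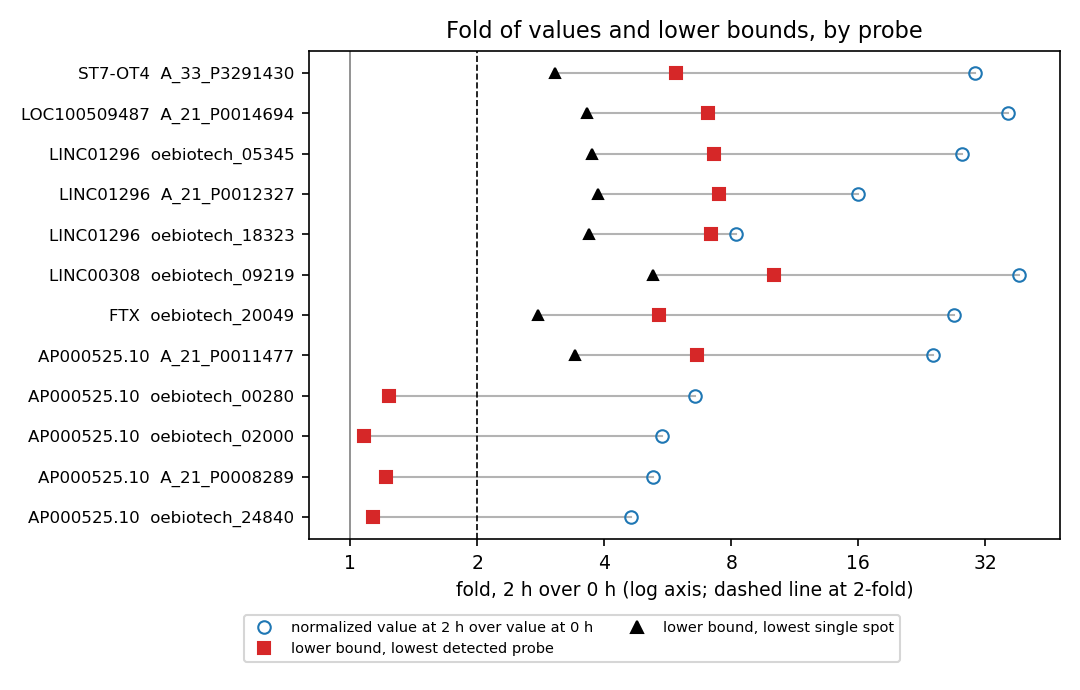
Fold of 2 h over 0 h (log axis) for each probe of the 6 lncRNAs and the probes that overlap them or read the same listed transcript, as the ratio of normalized values (open circles), the lower bound against the lowest detected probe (squares) and against the lowest single spot (triangles, drawn only where at least 1). The squares of the 3 LINC01296 probes lie at 7.16 to 7.50 while their circles spread from 8.19 to 28.1, and the 4 further AP000525.10 probes have squares at 1.08 to 1.23, past 2-fold with no scaling or with spike-in scaling.

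A further 5 probes of the study's list shared the detection pattern. GOLGA8B and GOLGA8A, of the golgin A8 family, were at least 11.5-fold and 7.14-fold higher, the HERC2 pseudogene HERC2P9 6.80-fold, the BMS1 pseudogene BMS1P1 13.8-fold, and this probe of GAS5, a host gene of small nucleolar RNAs, 7.75-fold, all by the first limit. By the stricter limit the bounds were 5.92-fold for GOLGA8B, 3.68-fold for GOLGA8A, 3.51-fold for HERC2P9, 7.09-fold for BMS1P1 and 3.996-fold for GAS5.

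The probes with a pair of signals most like that of LINC00308, by Euclidean distance of the log2 values at 0 h and 2 h among the 11064, were oebiotech_19069 (distance 0.20, at least 9.29-fold) and oebiotech_17261 (0.22, at least 9.37-fold), for which the files give no gene. GOLGA8B was among the nearest 5, at a distance of 0.23. The likeness rests on 2 arrays and on surrogate values at 0 h.

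The promoters of LINC00308, ST7-OT4 and FTX, the RNAs that RefSeq held by symbol, were searched as 300 bases around the start of each gene. That of LINC01296, held by synonym as DUXAP9, was not searched. The letters AGAACA, the core of an androgen response element half-site, were in none of the 3 on either strand, and in 14.8% of 35116 promoters of that length. The full palindrome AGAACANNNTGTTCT, which contains those letters, was in none of the 3 and in 1 of all promoters. The absence of these letters from so short a window says nothing about binding of the androgen receptor, which often binds far from the start.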

How the data were processed

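RNA of LNCaP cells at 0 h and 2 h of 10 nM DHT was measured on 2 one-colour arrays, 1 per condition, and groups were taken from the sample labels. The authors deposited Feature Extraction (version 10.7.1.1) output, in which each spot has an intensity after background correction, a p-value against its background (used by the software to call a spot significant) and flags, not normalized between arrays. They also deposited a table of log2 values, quantile normalized, used as an alternative. 0 value columns of that table were unmapped.

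The processed signal of 175556 spots (controls left out) was quantile normalized between arrays, converted to log2 and averaged per probe without outlier flags (Python 3.11.15, numpy 2.4.6, pandas 2.3.3). A probe was detected where at least a share of 0.5 of its spots was well above background. Bounds are those defined in the results. No spot was saturated. With 1 array per condition no test was possible, and precision is limited by the number of arrays. The normalization was checked against limma 3.58.1 (R 4.3.3). On simulated arrays of equal scale, 198 of 200 probes set below detection were found, with no lower bound above the true fold. The true fold was set above what a bound could reach there, so this does not check the bounds given here.

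Named were the 6 probes, probes sharing at least 30 bases with them or listed for the same transcript, the 5 other listed probes seen at 2 h only and the 5 nearest to LINC00308 (at most 2 without a gene printed). Probes overlapping the second AP000525.10 probe were added later. Gene names come from the study's lists, except that probes found by overlap were given the name of the probe they overlap. Members and lists were chosen with earlier results of these data known. Alternatives covered scaling, background, floor, flags and threshold.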

Additional observations from a re-analysis of the deposited data

How the results depend on the processing

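All 6 lncRNA probes were at least 2-fold higher under each of the 14 alternatives (12 planned, 2 added after seeing the data). Over the 11 that set a floor from detected probes or spots, the bounds ran from 4.04-fold to 29.5-fold for LINC00308 and from 2.30-fold to 16.3-fold for FTX. Their median bound, log2 2.77, became 2.30 when arrays were shifted to the 75th percentile over all spots, 4.34 when shifted to the spike-in probes, 3.94 with no scaling, 1.54 with normexp, 2.32 in the authors' table, 1.82 with the floor at the lowest single spot and 1.54 with the floor at the 5th percentile of detected probes. The other 3 give ratios and no bound. They were 4.87 where detection meant positive and significant, which puts the floor below the 0 h values of the 6 probes, and, both added, 4.87 with the own 0 h value in place of the floor and 2.15 with mean pixel signals. Of the 11064 probes with the same pattern, 2400 were at least 2-fold higher by bound. This became 10790 (spike-ins), 9018 (no scaling), 561 (normexp), 1499 (authors' table), 818 (lowest single spot), 539 (5th percentile), 940 (threshold of 3-fold) and, by ratio, 6224 (own value). With detection as positive and significant it was 4304 of 9085 probes. A floor set higher lowers every bound by construction, and otherwise the cause was not tested.

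All 4 further AP000525.10 probes passed 2-fold with no scaling and with spike-ins, which shift whole arrays, and their ratios where detection meant positive and significant were 5.21 (A_21_P0008289), 6.56 (oebiotech_00280), 4.63 (oebiotech_24840) and 5.48 (oebiotech_02000). Under others their value against the floor fell below equality, which is no bound and not a turned direction. With the 75th percentile over all spots, normexp, the authors' table, the lowest single spot and the 5th percentile, the log2 values were -0.11, -0.049, -0.24, -0.68 and -0.95 for A_21_P0008289, -0.29, -0.10, -0.43, -0.85 and -1.12 for oebiotech_02000, and -0.21, -0.052, -0.35, -0.78 and -1.05 for oebiotech_24840. For oebiotech_00280 they were -0.084, 0.0039, -0.21, -0.65 and -0.93. No paired analysis was possible because each condition had 1 array, and for the same reason no replicate could be left out. With 0 h signals in the background, the data bound each rise from below and give no upper limit.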

Other observations

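The 17 bases that the probe of LINC00308 shares with another probe, A_33_P3235891, are the longest run it shares with any probe of the array. That probe, printed as 1 spot, was well above background at 2 h only, with log2 signals of 6.76 at 0 h and 7.38 at 2 h. It was looked up after the values of LINC00308 were known, and the files give no gene for it.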
